A study of Homo sapiens with 6 samples.

Results

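The arrays numbered 1 were 2 of the 6 arrays of this series, 1 from a culture without added periostin (POSTN) and 1 from a culture given POSTN at 100 ng/mL. They were set against the 4 arrays numbered 2 and 3, which held the same 2 treatments in equal numbers. All 6 arrays carried RNA of residual MHCC97H cells, the cells of a human hepatocellular carcinoma (HCC) line that were left after heating at 47 °C, cultured for 24 h with or without recombinant POSTN. The numbers are the replicate numbers in the sample titles. What a number stands for was not given in the sources used here, nor whether equal numbers mark a shared passage, day or batch, nor whether the samples came from separate cultures, and p-values then measure only the spread between these samples, which may be technical. This split was chosen from earlier results of these same 6 arrays, so the number 1 difference is given below as a description with no test. Number and any step shared by the arrays of a number cannot be told apart.

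MHCC97H is an established line derived from a metastasising HCC, and like most HCC lines it has an unbalanced set of chromosomes. A hepatocyte is known for secreting plasma proteins such as albumin, transferrin and fibrinogen, under the control of transcription factors of the HNF, FOXA and C/EBP families. HCC lines keep part of this programme, and many also express genes of the epithelial-mesenchymal transition (EMT), in which epithelial cells take on the motility and matrix genes of connective tissue cells. POSTN is a matrix protein released by activated hepatic stellate cells and bound by integrins.

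Every value below is a log2 signal of 1 probe set, the probe set with the highest mean signal for its gene, and 1 unit is a doubling. A difference is the mean of the arrays numbered 1 minus that of the 4 others with the POSTN dose held constant, given with its standard error (SE) from limma. A probe set or gene is called where the limma adjusted p of that difference was under 0.05, used here only to sort the genes. The background level, 5.98, was the 95th percentile of 107 probe sets of olfactory receptors, which liver cells are not known to express. Of 19775 genes, 11550 had a mean signal above it.

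The keratins of hepatocytes, KRT8 and KRT18, were bright on all arrays (KRT8 13.86 to 14.13), and the oncofetal protein AFP lay between 8.85 and 9.16. In contrast, the hepatocyte gene APOA1 (2.73 to 5.68) and the oncofetal gene GPC3 (4.67 to 6.34) were at or near background, and APOB (5.26 to 6.64) was close to it on every array. Some measures of array quality overlapped between the numbers and others did not. Between 47.7% and 49.7% of probe sets lay above background on each array, and the ACTB 3′ minus 5′ log2 signal was 0.90 and 0.93 on the arrays numbered 1 and 0.81 to 1.09 on the others. The GAPDH 3′ minus 5′ log2 signal was -0.06 and -0.07 against -0.05 to -0.0018. The ACTB 3′ probe set was dimmer on the arrays numbered 1 (15.38 and 15.21 against 15.46 to 15.50), as was the GAPDH 3′ probe set (15.33 and 15.10 against 15.37 to 15.44). The interquartile range of the log2 signals above background was slightly narrower, 3.13 and 3.14 against 3.15 to 3.23, and the hybridisation spikes were slightly dimmer, 12.55 and 12.56 against 12.61 to 12.71. The part of these measures in the differences below was not tested.

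The arrays numbered 1 resembled each other more than either resembled any other array. Control 1 and POSTN 1 differed more than 2-fold at 2.35% of the 25320 probe sets above background. Each of the 8 pairs of an array numbered 1 with another array differed at 5.34% to 6.17%, whatever the treatments. The 6 pairs among the other arrays differed at 2.44% to 3.07%, close to the pair numbered 1.

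**Figure D1:**
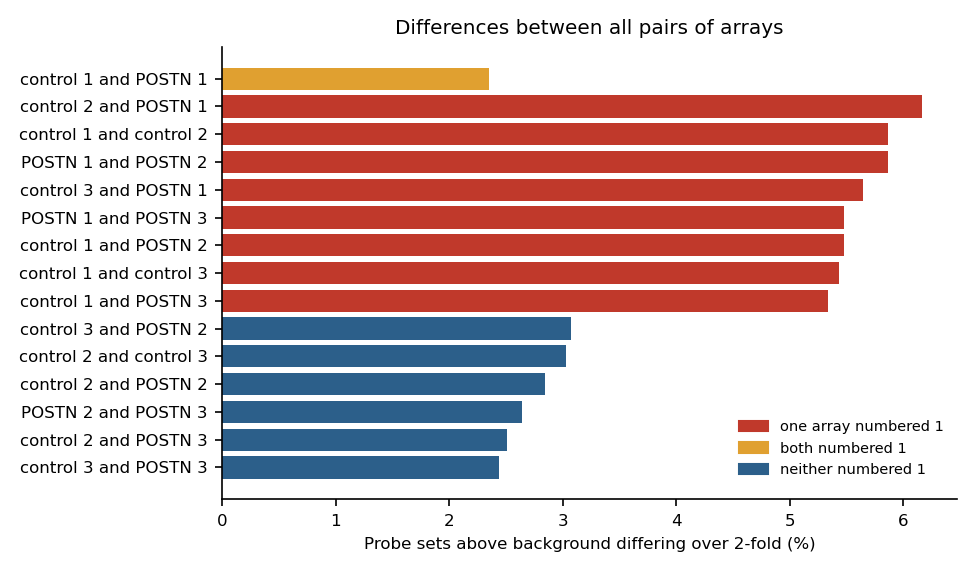
The share of probe sets above background that differed more than 2-fold (x axis, percent) is shown for each of the 15 pairs of arrays (y axis), coloured by how many of the pair were numbered 1. The 8 pairs with 1 array numbered 1 lie between 5.34% and 6.17%, and all others at or below 3.07%.

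A total of 3069 of 54613 probe sets (5.62%) were called, 1589 higher (2.91%) and 1480 lower (2.71%) on the arrays numbered 1. In limma without a trend of the variance on the signal, 0 probe sets were called (6261 at an unadjusted p under 0.05, lowest adjusted p 0.169), so the count leans on the variance estimated across probe sets. Without control 1 the count was 718 and without POSTN 1 it was 657, since 1 array then stood for the number. Counted by gene, 1769 of 19775 were called (8.95%), 917 higher (4.64%) and 852 lower (4.31%). Of the 1769 called genes, 1743 were among the 11550 with a mean above background (15.1% of those). That mean was taken over all 6 arrays, so a gene may pass through its brighter side alone. Counts of called members in the gene lists below are to be read beside these shares, 8.95% and 15.1%. The differences were mostly moderate. Their median size was 0.52, the smallest called was 0.20, and 157 higher and 120 lower genes passed 2-fold. Without regard to any call, both arrays numbered 1 lay outside the range of the 4 others for 31.6% of all genes. Chance alone places some genes so in any split of 2 arrays against 4, and number 1 was set apart with these arrays known.

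All 1769 called genes had the same sign of difference in the control arrays and in the POSTN arrays, which the call rule favours. Over the 11550 genes above background, called or not, the difference among control arrays and that among POSTN arrays had the same sign in 72.1%. Pearson r was 0.61 across genes, which are not independent replicates. Number 1 was set apart with these arrays known, which favours such agreement too, so both values are a description.

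**Figure D2:**
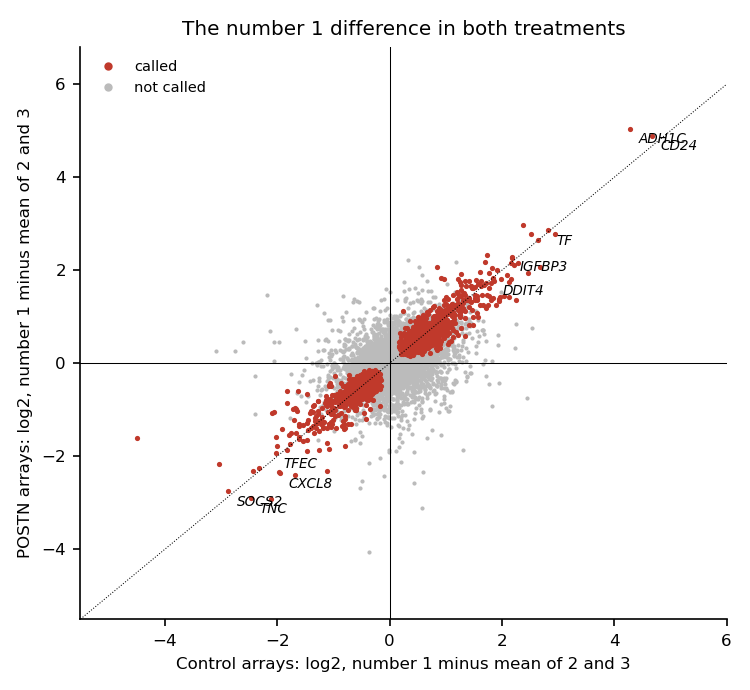
Each point is 1 of 11550 genes above background, placed by its log2 difference of number 1 from the mean of numbers 2 and 3 among the control arrays (x axis) and among the POSTN arrays (y axis). The dotted line marks equal differences, and the called genes (red) lie along it in the upper right and lower left of the plot.

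The genes that were higher on the arrays numbered 1 were not spread evenly over the chromosomes. Chromosome 15 stood apart as a whole, as did the first stretch of the gene order of chromosomes 3 and 2. Of 377 genes of chromosome 15 above background, 93 were called higher (24.7%) and 6 lower (1.59%), and 307 of the 377 had a positive difference. Their median difference was 0.24, against 0.00 over the 11021 genes outside the 3 stretches, where 7.0% were called higher and 7.47% lower. Each other chromosome had a median between -0.06 and 0.04. These groupings were made after the values were seen and were given no test, and DNA was not measured in these samples.

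Chromosome 15 was higher along its length. In 9 successive blocks of 40 neighbouring genes its median difference ran from 0.14 to 0.31. Per array, the median deviation of its genes from their own mean over the 6 arrays was 0.19 on control 1 and 0.15 on POSTN 1. On control 2, control 3, POSTN 2 and POSTN 3 the same median deviation was -0.07, -0.08, -0.06 and -0.07. Both arrays numbered 1 were thus above all 4 others, which hardly differed among themselves.

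On chromosome 3 the first 60 genes above background, up to CCDC174, had a median difference of 0.58, which is 1.5-fold. Of these, 54 were positive, 31 were called higher and 1 lower. The step at the end of the stretch was abrupt. In successive groups of 10 genes the median was 0.72, 0.39, 0.71, 0.46, 0.43 and 0.63, and in the next group, FGD5-AS1 to BTD, it was 0.02. Over genes 61 to 120 of that chromosome 3 genes were called higher and 3 lower, with a median of -0.03. The per-array median deviations of the first 60 genes were 0.40 and 0.31 on control 1 and POSTN 1, and between -0.21 and -0.18 on the others.

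A similar step lay on chromosome 2. Its first 60 genes, from FAM110C to PTRHD1, had a median difference of 0.35 (1.27-fold), with 55 positive, 15 called higher and 0 lower by limma. The next 60 genes, from CENPO on, had a median of 0.02, with 1 called higher and 4 lower. Over all 276 blocks of 40 neighbouring genes in the genome, 14 had a median above 0.15, of which 7 were on chromosome 15, and 5 had a median under -0.15, the lowest at -0.18. The medians of number 2 minus number 3 over the same blocks ran from -0.16 to 0.09, and 1 of the 276 was under -0.15. The choice of the split favours small values in that comparison. Blocks outside the 3 stretches also passed 0.15 for the number 1 difference. They included blocks of chromosome 19 (RPS19 to ZNF235, 0.23), chromosome 17 (KCTD2 to MXRA7, 0.22) and chromosome 8 (THEM6 to VPS28, 0.17).

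**Figure D3:**
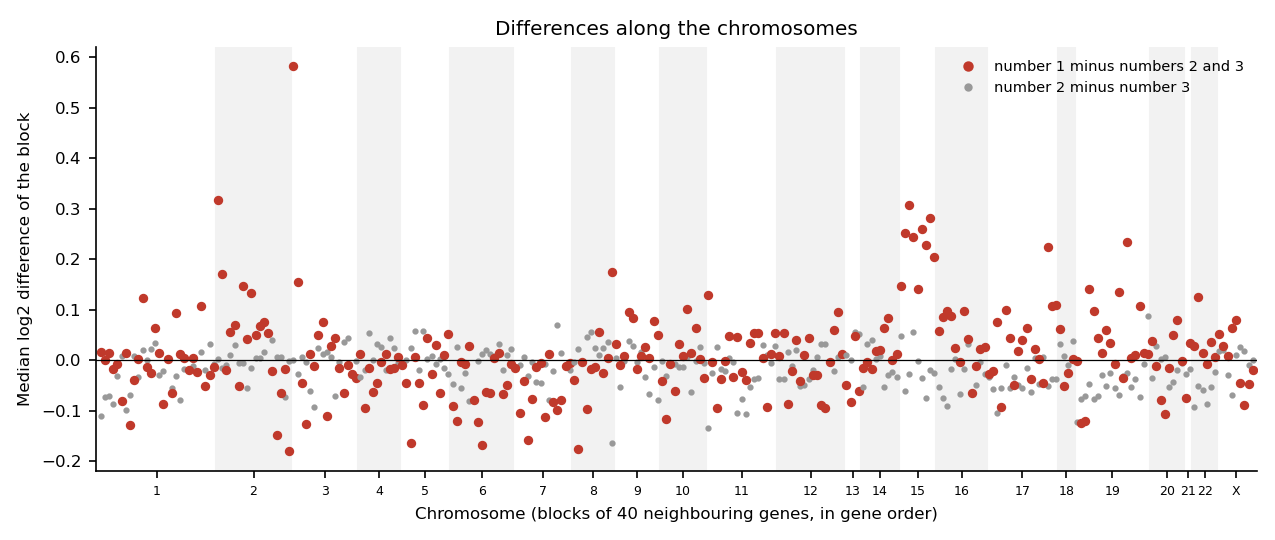
Each red point is the median log2 difference, number 1 minus numbers 2 and 3 (y axis), of 40 neighbouring genes above background, in gene order along the chromosomes (x axis), and each grey point is the same for number 2 minus number 3. The first block of chromosome 3 (0.58), the first of chromosome 2 (0.32) and the blocks of chromosome 15 (0.14 to 0.31) lie above 0, while the grey points stay between -0.16 and 0.09.

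Together the 3 stretches held 497 genes and 139 of the genes called higher. The genes of chromosome 15 with the largest differences included SLC51B, the beta subunit of the basolateral bile acid and steroid exporter. Its signals were 10.67 and 10.68 on control 1 and POSTN 1 and 8.38, 8.59, 8.71 and 8.14 on control 2, control 3, POSTN 2 and POSTN 3, a difference of 2.22 ± 0.15 (SE). GATM, the first enzyme of creatine synthesis, followed at 1.84 ± 0.17 and GCHFR, the feedback regulator of GTP cyclohydrolase, at 1.62 ± 0.19.

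In the stretch of chromosome 3, CIDEC, a lipid droplet protein, read 11.96 and 11.74 on control 1 and POSTN 1 and 10.14, 10.30, 10.22 and 10.33 on control 2, control 3, POSTN 2 and POSTN 3. That is a difference of 1.61 ± 0.09, with no overlap. CRBN, the substrate receptor of a ubiquitin ligase, was higher by 0.89 ± 0.09, and TRNT1, which adds the CCA end to tRNAs, by 1.09 ± 0.07. VHL, the ubiquitin ligase subunit that marks HIF-alpha for degradation, also lies there and was higher by 1.51 ± 0.34. In the stretch of chromosome 2, LPIN1, a phosphatidate phosphatase, was higher by 0.81 and RHOB, a small GTPase, by 0.73. Not all genes of these stretches followed, since ANPEP, an aminopeptidase gene of chromosome 15, was lower (-0.66 ± 0.08). Apart from ANPEP, these 9 genes were chosen after their values were seen.

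TF, SERPINA1, SELENOP and FGB, which encode proteins that the liver secretes into plasma, were among the 12 genes with the largest positive differences. Chosen for this report because they were known to separate the numbers, the markers CD24, TF, IGFBP3 and DDIT4 were higher and SOCS2 and TFEC lower on the arrays numbered 1. CD24, a surface glycoprotein of progenitor and carcinoma cells, read 10.64 and 10.48 on control 1 and POSTN 1 and 5.74, 6.18, 5.61 and 5.55 on control 2, control 3, POSTN 2 and POSTN 3. Of the 4 others only control 3 was above background, so CD24 was at least 23.1-fold higher, and all 6 of its probe sets were called higher. All 6 are of a class that may read several genes, so they are not independent measurements. TF, which encodes the iron carrier transferrin, read 10.22 and 10.32 on control 1 and POSTN 1 and 7.46, 7.35, 7.47 and 7.45 on control 2, control 3, POSTN 2 and POSTN 3. That is a difference of 2.83 ± 0.14, or 7.13-fold.

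All 3 fibrinogen chains, the precursor of the fibrin clot, were higher. The beta chain FGB read 9.65 and 9.87 on control 1 and POSTN 1 against 6.69, 7.32, 7.30 and 7.13 on control 2, control 3, POSTN 2 and POSTN 3. Its difference was 2.65 ± 0.20, that of FGG 2.22 ± 0.21 and that of FGA 2.03 ± 0.20. Tissue factor F3, which starts coagulation, went the other way at -1.03 ± 0.08. Of 25 coagulation genes measured, 3 were called higher and 3 lower.

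Of 24 plasma carrier and transport proteins, 6 were called higher and 1 lower, with a median difference of 0.19. That median ran from 0.0035 without probe sets that may read several genes to 0.46 without POSTN 1. Albumin (ALB) was dim throughout, at 7.75 and 7.83 on the arrays numbered 1 and 5.65 to 6.13 on the others, of which 2 were above background, and was at least 3.34-fold higher. SERPINA1, the elastase inhibitor alpha-1-antitrypsin, was at least 3.56-fold higher, since its signal lay below background on all 4 other arrays. Selenoprotein P (SELENOP), the selenium carrier, was at least 4.02-fold higher on the same ground. The copper protein CP was higher by 1.5 ± 0.10 and AMBP by 1.10 ± 0.14. The 1 member called lower, SERPINA7, was below background on all 6 arrays.

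Lipoprotein genes were divided. Among 20 measured, 4 were called higher and 1 lower (median 0.15). The median changed sign between the treatments, at 0.36 within control arrays and -0.04 within POSTN arrays. Apolipoprotein H (APOH) read 12.64 and 12.69 on the arrays numbered 1 and 10.86 to 11.17 on the others, a difference of 1.65 ± 0.08. MTTP, which loads lipid onto apolipoprotein B, was higher by 1.37 ± 0.36, while the cholesterol exporter ABCA1 was lower (-1.55 ± 0.19).

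Among enzymes, ADH1C, an alcohol dehydrogenase of hepatocytes, read 10.33 and 10.66 on control 1 and POSTN 1 and 6.30, 5.80, 5.80 and 5.44 on control 2, control 3, POSTN 2 and POSTN 3. Of the 4 others only control 2 was above background, so it was at least 21.7-fold higher. ASS1 of the urea cycle was higher by 2.37 ± 0.28, the monoamine oxidase MAOB by 2.87 ± 0.25 and the glutathione transferase GSTA1 by 1.41 ± 0.09. Of 28 hepatocyte enzymes 4 were called higher and 0 lower by limma, with a median of 0.18, which was 0.06 without control 1. The share called, 14.3%, lay between that of all genes (8.95%) and that of genes above background (15.1%).

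Of 19 liver-enriched transcription factors 3 were called higher and 0 lower by limma, with a median of 0.39, which was 0.12 when probe sets above background were averaged for each gene. The share called, 15.8%, was close to that of genes above background (15.1%). CEBPA, the C/EBP factor of differentiated hepatocytes, read 11.97 on both arrays numbered 1 and 10.67, 10.84, 10.64 and 10.83 on control 2, control 3, POSTN 2 and POSTN 3. The groups did not overlap (difference 1.23 ± 0.08). FOXA1 was higher by 0.85 ± 0.19 and HNF4G by 0.52 ± 0.13. AFP did not follow, at 0.12 ± 0.12, and in the oncofetal list 1 of 14 genes was called, HMGA2, which was lower (-0.77 ± 0.08).

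Genes of stem-like and progenitor cells differed one by one. SOX9, a factor of bile duct and progenitor cells, was higher by 1.78 ± 0.25 and SOX2, a pluripotency factor, by 1.02 ± 0.09. The list of liver cancer stem cell genes had 4 of 18 called higher and 2 lower, among them ANPEP (CD13). Of the epithelial junction and keratin genes, 3 of 31 were called higher, led by the tight junction protein CGN at 1.23 ± 0.12, and 2 lower, led by the desmosomal DSC2 at -0.86 ± 0.10. E-cadherin (CDH1) was not called, at 0.44 ± 0.21.

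**Figure D4:**
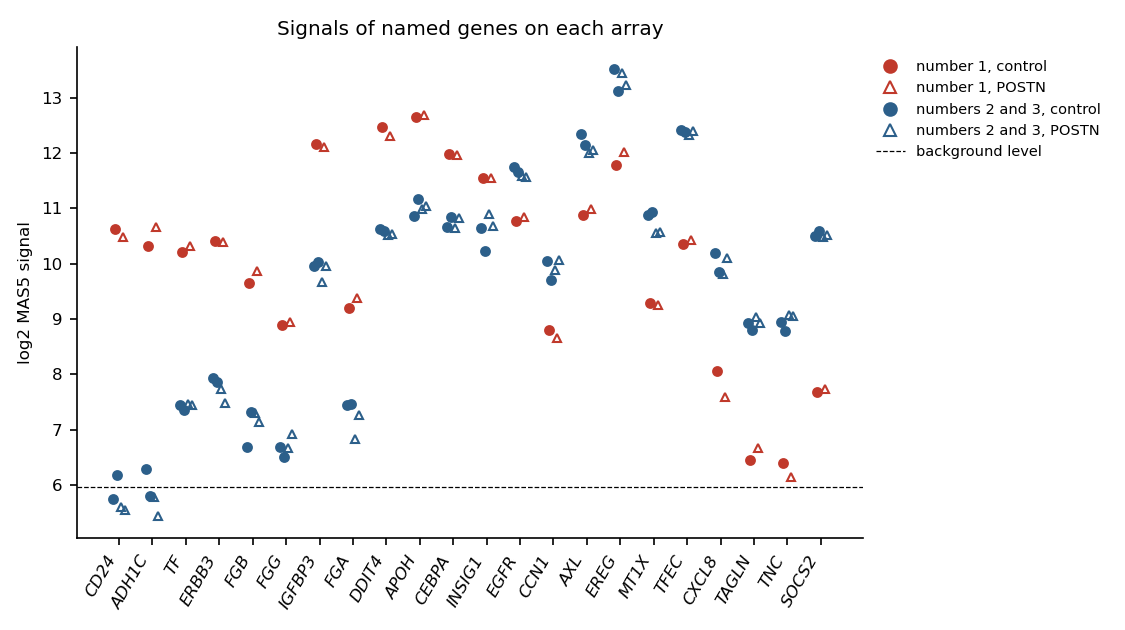
Log2 MAS5 signals (y axis) of 22 named genes (x axis) on each array, with the arrays numbered 1 in red, those numbered 2 and 3 in blue, controls as filled circles and POSTN as open triangles, and the background level dashed. For CD24 and ADH1C most blue points lie at background, and in no gene shown do red and blue points overlap. The rule for naming called genes required both arrays numbered 1 to lie outside the range of the others, so this was set by the choice.

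Most genes of cholesterol synthesis were higher. Of 19 genes measured, 13 were called higher and 0 lower by limma, and 18 had a positive difference (median 0.39). INSIG1, the sterol sensor partner that is itself a sterol-regulated gene, read 11.55 on both arrays numbered 1 and 10.65, 10.22, 10.90 and 10.68 on control 2, control 3, POSTN 2 and POSTN 3. The difference was 0.93 ± 0.13. DHCR7, which makes cholesterol from its last precursor, was higher by 0.65 ± 0.11 and the isomerase IDI1 by 0.50 ± 0.08, whereas HMGCS1, an early enzyme of the pathway, was not called at 0.05 ± 0.12.

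Fatty acid genes shared this direction in part. Of 16 genes of fatty acid synthesis and desaturation, 4 were called higher and 1 lower (median 0.22). The desaturase SCD was higher by 0.86 ± 0.06 and the synthase FASN by 0.63 ± 0.10, and the elongase ELOVL6 was lower (-0.36 ± 0.08). Of 17 genes of fatty acid oxidation, 4 were called higher and 16 had a positive difference (median 0.29). ETFB, which passes electrons from acyl-CoA dehydrogenases to the respiratory chain, led them at 0.83 ± 0.06, and its partner ETFA (0.37 ± 0.05) is a gene of chromosome 15. The respiratory chain itself showed a median of 0.02 over 49 subunits.

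Targets of the hypoxia-inducible factors (HIF) that were called were mostly higher. Of 26 HIF targets 12 were called higher and 2 lower, and 24 had a positive difference (median 0.35). Of 21 glycolysis enzymes and glucose transporters 1 was called higher, ALDOC, and 1 lower, HK1, and the median was -0.09. TMEM45A was higher by 1.46 ± 0.25. PFKFB4, which makes the activator of phosphofructokinase, read 8.53 and 8.33 on control 1 and POSTN 1 and 7.12, 7.11, 7.56 and 7.45 on control 2, control 3, POSTN 2 and POSTN 3 (difference 1.12 ± 0.20). VEGFA, the endothelial growth factor, was not called at 0.10 ± 0.07, and the collagen-modifying LOX (-1.20 ± 0.27) and P4HA2 (-0.58 ± 0.09) were lower.

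DDIT4 (REDD1), a stress-induced inhibitor of mTORC1, was among the markers higher on the arrays numbered 1. It read 12.48 and 12.30 on control 1 and POSTN 1 and 10.63, 10.59, 10.53 and 10.53 on control 2, control 3, POSTN 2 and POSTN 3. The difference was 1.82 ± 0.07, or 3.53-fold. The promoter of ANGPTL4, a lipoprotein lipase inhibitor that was higher by 0.77 ± 0.17, is shown as that of the called-higher HIF target with the largest difference whose RefSeq window holds the core letters of a hypoxia response element, ACGTG. The window is chr19:8363905-8364204 of GRCh38.p14, plus strand, 300 bases that run from upstream of the transcription start to just past it, and the capitals mark the match, which here reads on the opposite strand.
ANGPTL4 promoter: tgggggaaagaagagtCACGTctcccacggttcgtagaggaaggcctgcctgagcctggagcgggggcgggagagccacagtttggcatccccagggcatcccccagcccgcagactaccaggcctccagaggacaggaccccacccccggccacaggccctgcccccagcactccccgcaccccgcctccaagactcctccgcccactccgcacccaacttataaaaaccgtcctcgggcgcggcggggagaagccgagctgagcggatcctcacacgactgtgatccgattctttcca
These letters, searched on both strands, were in 13 of the 22 HIF targets with a window (59.1%) and in 21.6% of all 27305 windows. LOX, which was lower, held these letters 4 times, and WSB1 and KDM4B, which were not called, held them as well. The list was made of known HIF targets, so its share does not bear on the number 1 difference. For the sterol regulatory element TCACNCCAC the count was 1 of 17 cholesterol genes, SREBF2, which was not called (-0.17 ± 0.21), against 1.15% of all windows.

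The mesenchymal genes that were called were all lower on the arrays numbered 1. Of 28 EMT genes 0 were called higher and 9 lower by limma, and 23 had a negative difference (median -0.48). The matrix glycoprotein tenascin C (TNC) read 6.39 and 6.16 on control 1 and POSTN 1 and 8.94, 8.78, 9.07 and 9.05 on control 2, control 3, POSTN 2 and POSTN 3, a difference of -2.69 ± 0.17. Transgelin (TAGLN), an actin-binding protein of smooth muscle, read 6.45 and 6.68 against 8.94, 8.81, 9.03 and 8.94 (-2.37 ± 0.15). Vimentin (VIM) was not called, at -0.55 ± 0.16, and fibronectin (FN1) was about level at -0.06 ± 0.05.

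Targets of YAP and TEAD, the factors that respond to cell contact and tension, were also lower where called, with 1 exception. Of 20 genes 9 were called lower and 1 higher, and 18 had a negative difference (median -0.45). CCN1, a matricellular protein, read 8.80 and 8.66 on control 1 and POSTN 1 and 10.05, 9.71, 9.88 and 10.06 on control 2, control 3, POSTN 2 and POSTN 3 (-1.19 ± 0.12). The receptor tyrosine kinase AXL was lower as well (-1.20 ± 0.09). IGFBP3, which binds insulin-like growth factors and is also a YAP target, was that exception, at 12.17 and 12.10 against 9.96, 10.04, 9.67 and 9.96 (2.23 ± 0.09). It shared this direction with IGFBP2 (0.99 ± 0.18), and 5 of 16 IGF-axis genes were called higher and 2 lower.

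The promoter of CCN2 (connective tissue growth factor), which was lower (-1.01 ± 0.08), is shown because it is the called-lower YAP target with the largest difference whose window holds the TEAD letters GGAATG. CCN2 was chosen after its values were seen. The window is chr6:131951323-131951622 of GRCh38.p14, minus strand, and the capitals mark 3 matches.
CCN2 promoter: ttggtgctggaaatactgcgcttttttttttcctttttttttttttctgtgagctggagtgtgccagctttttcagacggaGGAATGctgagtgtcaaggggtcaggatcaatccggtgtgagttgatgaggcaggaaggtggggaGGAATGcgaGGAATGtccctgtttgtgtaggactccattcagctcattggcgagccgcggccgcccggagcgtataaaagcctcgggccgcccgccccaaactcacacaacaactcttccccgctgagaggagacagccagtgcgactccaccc
The letters GGAATG, on either strand, were in 5 of 15 YAP targets with a window (33.3%) and in 14.1% of all windows. A match describes these letters and no more.

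Matrix, integrin and protease genes were lower where they were called, with few exceptions. Of 24 basement membrane and matrix genes 5 were called lower and 1 higher. TNC, given above, had the largest difference of the list, followed among those called by the proteoglycan versican (VCAN) at -1.76 ± 0.12, and FBLN1 was the 1 called higher (0.62 ± 0.12). Of 20 integrin chains 3 were called lower, namely ITGB3 (-1.24 ± 0.30), the collagen receptor chain ITGA2 (-0.96 ± 0.08) and ITGB1 (-0.32 ± 0.05). ITGB3 is a chain of a known receptor of POSTN. The share of integrin chains called was no higher than that of genes above background (15.1%). The median of the integrin list was -0.18, but it changed sign between the treatments. It was 0.12 within control arrays and -0.19 within POSTN arrays, so the list as a whole had no stable direction. Among 26 plasminogen activators, metalloproteinases and their inhibitors, 9 were called lower, such as urokinase (PLAU, -0.76 ± 0.12) and its receptor PLAUR (-0.70 ± 0.07), and 3 higher, such as MMP7 (0.69 ± 0.10).

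**Figure D5:**
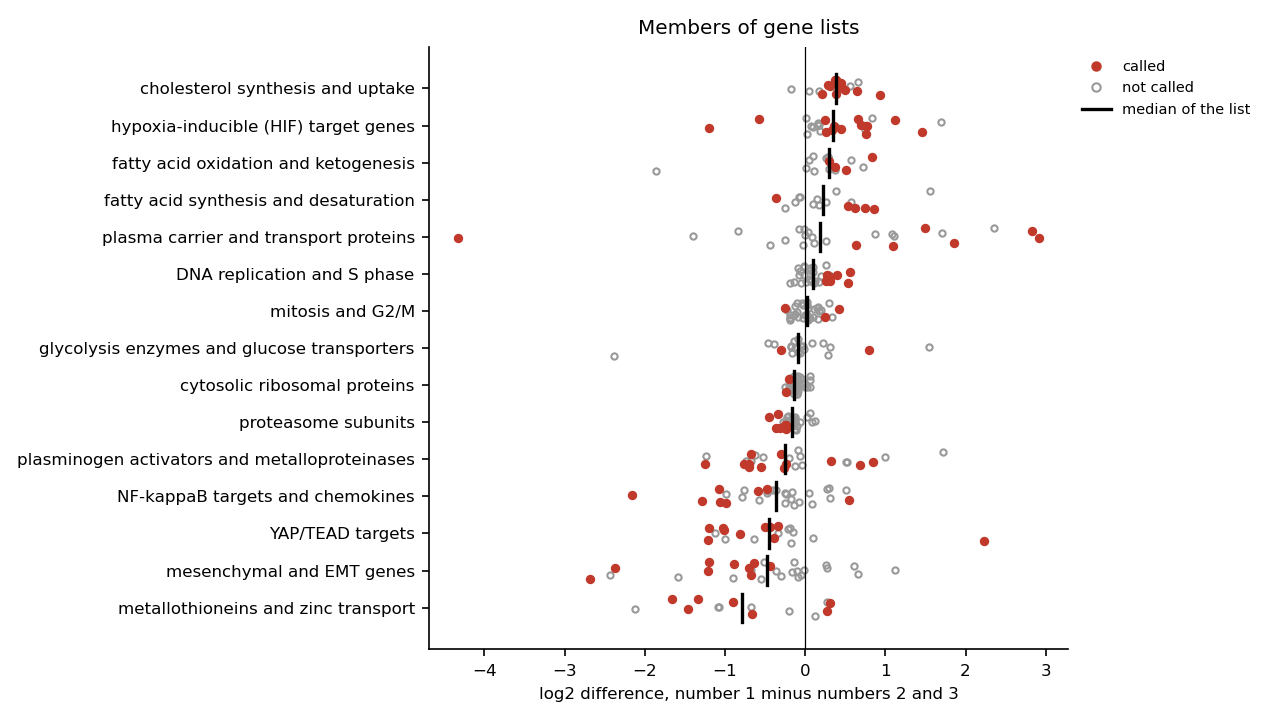
Log2 difference of number 1 from numbers 2 and 3 (x axis) for each measured member of 15 gene lists (y axis), with called genes in red, the others as open grey circles and the median of each list as a black bar. The medians run from 0.39 for cholesterol synthesis to -0.79 for metallothioneins and zinc transport, and the 1 YAP target called higher is IGFBP3.

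Targets of NF-kappaB and chemokines were lower where called, with 1 exception. Of 29 NF-kappaB targets and chemokines 7 were called lower and 1 higher (median -0.36). Interleukin 8 (CXCL8), a neutrophil attractant, read 8.07 and 7.60 on control 1 and POSTN 1 and 10.19, 9.85, 9.82 and 10.11 on control 2, control 3, POSTN 2 and POSTN 3 (-2.16 ± 0.15). IL6 was lower (-1.29 ± 0.23), as was CXCL5 (-1.07 ± 0.09), while TNFAIP2 was higher (0.55 ± 0.11). The interleukin 7 receptor IL7R was at least 4.05-fold lower, since both arrays numbered 1 were below background.

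Of 16 genes of the SOCS family, which suppress cytokine signals, and of the STAT5 axis, 2 were called lower. SOCS2, which damps growth hormone and STAT5 signals, read 7.67 and 7.75 on control 1 and POSTN 1 and 10.51, 10.59, 10.49 and 10.52 on control 2, control 3, POSTN 2 and POSTN 3. Its difference of -2.81 ± 0.10 is 7.03-fold. SOCS3, a target of STAT3, was lower by less (-1.12 ± 0.13). Of 31 interferon-stimulated genes 3 were called higher, among them OAS1 (0.90 ± 0.07) and the RNA sensor IFIH1 (0.75 ± 0.18), and 1 lower, GBP1 (-0.53 ± 0.11). The shares called in these lists, 12.5% and 12.9%, lay between that of all genes (8.95%) and that of genes above background (15.1%).

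Receptors of the ERBB family went in opposite directions. ERBB3, the neuregulin receptor, read 10.42 and 10.39 on control 1 and POSTN 1 and 7.94, 7.86, 7.74 and 7.49 on control 2, control 3, POSTN 2 and POSTN 3 (2.65 ± 0.14). EGFR was lower (-0.83 ± 0.07), and so were ligands that it binds, EREG (-1.43 ± 0.10) and HBEGF (-0.78 ± 0.20). In all, 5 of 13 ERBB genes were called lower and 2 higher. The immediate early genes FOS (1.56 ± 0.19) and EGR1 (1.15 ± 0.11) were higher, while FOSL1 (-0.77 ± 0.08) and MAFF (-0.74 ± 0.07) of the same list were lower. The ERK inhibitors SPRY1 (0.80 ± 0.09) and SPRY2 (-0.99 ± 0.11) also parted. Of 23 immediate early genes 4 were called in each direction.

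TFEC, a factor of the MiT/TFE family that includes the lysosome regulator TFEB, read 10.36 and 10.42 on control 1 and POSTN 1 and 12.41, 12.37, 12.33 and 12.40 on control 2, control 3, POSTN 2 and POSTN 3. The difference was -1.98 ± 0.06 (3.95-fold). Lysosome genes of its list showed smaller differences, with 6 of 27 called lower and 2 higher (median -0.09). NPC1, which exports cholesterol from lysosomes, was lower (-0.47 ± 0.06) and the autophagy receptor SQSTM1 higher (0.52 ± 0.05).

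Metallothioneins are small proteins that bind zinc and copper. Their list, with zinc transporters, had 5 of 14 genes called lower and 2 higher (median -0.79), and all 5 were metallothioneins. MT1X read 9.30 and 9.25 on control 1 and POSTN 1 and 10.88, 10.94, 10.55 and 10.57 on control 2, control 3, POSTN 2 and POSTN 3 (-1.46 ± 0.09). MT1H was lower too (-1.66 ± 0.23), and so was MT1F (-1.34 ± 0.19). Metallothionein genes are near copies of each other, so a probe set may read several, and the members are not independent measurements. The zinc exporter SLC30A1 was higher (0.32 ± 0.07), but its mean over probe sets above background was -0.0936.

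The promoter of MT1H is shown as that of the called-lower member with the largest difference among those with the core letters of a metal response element, TGCGCNC or TGCACNC. The window is chr16:56669564-56669863 of GRCh38.p14, plus strand, and the capitals mark 8 matches on either strand.
MT1H promoter: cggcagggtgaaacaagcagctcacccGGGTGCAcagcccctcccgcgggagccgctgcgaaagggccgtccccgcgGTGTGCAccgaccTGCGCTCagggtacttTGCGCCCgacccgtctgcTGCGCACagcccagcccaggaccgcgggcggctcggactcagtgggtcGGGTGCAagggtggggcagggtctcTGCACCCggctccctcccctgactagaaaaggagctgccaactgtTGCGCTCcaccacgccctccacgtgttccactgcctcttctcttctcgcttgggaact
Such letters were in 5 of 8 genes of the list with a window (62.5%) and in 29.4% of all windows. Among the 5 were SLC30A1, which was called higher, and MT4, which was not called. The list was made of known metallothioneins and zinc genes, so its share does not bear on the number 1 difference.

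Antioxidant and iron genes held a few large differences. GPX2, a glutathione peroxidase, was higher by 1.40 ± 0.07 and heme oxygenase HMOX1 by 0.78 ± 0.07, but the NRF2 target list as a whole had a median of 0.03, with 5 of 25 called higher and 1 lower, and NQO1 was level at 0.03 ± 0.05. The iron exporter ferroportin (SLC40A1) read 13.06 and 13.07 on control 1 and POSTN 1 and 11.73, 11.77, 11.78 and 11.75 on control 2, control 3, POSTN 2 and POSTN 3 (1.31 ± 0.06). With TF and CP it made up the 3 of 17 iron genes called higher, and 0 were called lower by limma.

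Cell cycle lists had small medians, with larger differences in single members. Of 35 genes of DNA replication 7 were called higher and 0 lower by limma (median 0.09), among them TYMS (0.53 ± 0.06), which makes thymidylate, and TK1 (0.55 ± 0.10). Of 35 mitotic genes 2 were called higher and 1 lower (median 0.02), and both of those higher, NUSAP1 and BUB1B, are genes of chromosome 15. The proliferation marker MKI67 was not called (-0.12 ± 0.08). Of 17 G1 cyclins and cell cycle inhibitors 3 were called higher and 4 lower (41.2% called, median 0.08), with the CDK inhibitor CDKN2B higher (0.63 ± 0.13). The inhibitor CDKN1A (p21) read 9.0 and 9.44 on control 1 and POSTN 1 and 10.29, 10.26, 10.25 and 10.24 on control 2, control 3, POSTN 2 and POSTN 3 (-1.04 ± 0.11). GADD45A, another p53 target, was lower too (-1.20 ± 0.11), whereas TP53INP1 was higher (1.21 ± 0.11), and the 18 p53 targets had 4 called higher and 3 lower.

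Stress and protein turnover genes showed small differences in many members. Of 30 proteasome subunits 8 were called lower and 0 higher by limma (median -0.16), led by PSMD1 (-0.45 ± 0.06), and 26 were negative. Of 48 cytosolic ribosomal proteins 2 were called lower and 44 were negative (median -0.14). Very bright genes as a class leaned the same way. The 1651 genes with a mean signal over 12 had a median of -0.08, with 110 called higher and 256 lower, and after quantile normalization the median of the ribosomal proteins was -0.01 and that of the proteasome -0.11. Of 20 heat shock genes 3 were called lower, among them HSP90AB1 (-0.30 ± 0.06), and 1 higher, DNAJB1 (0.31 ± 0.07). Of 21 genes of the unfolded protein response 3 were called higher and 2 lower, and the 3 higher, EDEM1, PDIA3 and PDIA6, all lie in the stretches of chromosomes 15, 2 and 3. The ATF4 targets split, with 4 of 31 called higher, led by PHGDH (1.01 ± 0.14), and 7 lower, led by STC2 (-0.90 ± 0.08).

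Markers of stellate, endothelial and blood cells mostly had a mean signal below background, while those of bile duct cells were not. In bulk RNA, fewer cells of a type and less RNA per cell cannot be told apart. Of 14 stellate cell and fibroblast markers 4 were above background, with a summed linear signal of 3138 and 3662 on the arrays numbered 1 and 3716 to 4070 on the others, and DCN, a small matrix proteoglycan, was called lower (-1.0 ± 0.11). Of 10 endothelial markers 2 were above background, summing to 1818 and 1585 against 1143 to 1431, and PECAM1 was called higher (0.51 ± 0.11). Of 13 leukocyte markers 3 were above background, summing to 919 and 973 against 733 to 894, and 0 were called by limma. Of 10 cholangiocyte markers, several of which carcinoma cells also express, 8 were above background, summing to 35280 and 34430 against 33780 to 35670. CD24 and SOX9 were the 2 called higher, and the mucin MUC1 was called lower (-0.76 ± 0.11). The part of all these markers in the differences above was not tested.

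Beside the split itself, 3 comparisons were tested. They are not all free of the choice of the split. Numbers 2 and 3 were put together with these arrays known, which favours a small difference between them. The interaction of number and POSTN asks whether the POSTN difference differs between the arrays numbered 1 and the arrays numbered 2 and 3. It gave 0 probe sets in limma at an adjusted p under 0.05 (lowest adjusted p 0.992). At an unadjusted p under 0.05 it gave 2474 of 54613. With number as a covariate, POSTN against control gave 0 probe sets in limma (2434 at an unadjusted p under 0.05, lowest adjusted p 0.366). Number 2 against number 3 also gave 0 in limma (3352 unadjusted, lowest adjusted p 0.642). With 2 or 3 residual degrees of freedom these tests are weak, and a count of 0 does not show that the responses were alike.

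An example of values that parted within a number is given for 1 gene, which does not stand for others. ABCA1 read 7.99 on control 1 and 8.54 on POSTN 1, whereas it read 10.19 and 9.89 on control 2 and control 3 and 9.64 and 9.53 on POSTN 2 and POSTN 3. Its interaction estimate of 1.0 had a limma adjusted p of 0.992.

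Some of the largest differences rested on dim signals. CYP26B1, a retinoic acid hydroxylase, was at least 4.35-fold higher and LGALS2, a galectin, at least 2.12-fold higher on the arrays numbered 1, because their signals on the 4 other arrays were below background. Among the 12 genes with the largest negative differences, FAM83B, MGAT5B, PLA2G5, PPP1R14B-AS1, KLF15, EXOC3L1, DOCK10 and GDF2 were below background on both arrays numbered 1, with bounds from 1.01-fold (KLF15) to 2.01-fold (EXOC3L1). For CYP26B1, MAOB and SELENOP among the 12 largest positive differences, and for FAM83B, MGAT5B, PLA2G5, DNAH6, TNC, KLF15, IL7R, EXOC3L1 and DOCK10 among the 12 largest negative ones, no other probe set of the gene was called.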

How the data were processed

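RNA of heat-exposed residual MHCC97H cells was extracted with miRNeasy kits, labelled with a 3′ in vitro transcription kit and hybridised to Affymetrix U133 Plus human arrays, 3 per treatment. The authors processed the arrays with MAS5 and the affy package (versions not given in the sources used here), and the deposited values are log2 of MAS5 signals, scaled on each array to a trimmed mean of 500 with 2% trimmed at each end, as found from the values. No depth applies, and the number of arrays limits the precision. Values were used as deposited. Of 54675 probe sets, 62 controls were left out and 54613 tested, of which 41091 had 1 symbol in the platform annotation, 1801 several and 11721 none, which stayed unnamed. Each of 19775 genes was represented by its brightest probe set.

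Differences were fitted with limma 3.58.1 (R 4.3.3) on number 1 and POSTN dose, with a trend on signal, robust off and Benjamini-Hochberg adjustment over all 54613 probe sets, tested first on simulated data. Number 2 against number 3 and the interaction were added as terms. Over probe sets above background, deviations from the treatment means correlated between equal numbers at 0.53, 0.23 and 0.24 for numbers 1, 2 and 3. Between control 2 and POSTN 3 they correlated at 0.20, and between control 3 and POSTN 2 at 0.15. These values do not settle whether equal numbers are pairs, and the labels do not state it. The fit with number as a block, which takes equal numbers as pairs, was run as an alternative.

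The members and the 58 gene lists were chosen with earlier results of these data known. Named genes were the markers, the 12 largest differences each way among called genes whose arrays numbered 1 lay outside the range of the others with the brighter side above background, up to 3 such members each way per list, and members named for a lack of difference. Listed genes without a probe set of 1 symbol were not analysed here. Gene order and promoters were taken from RefSeq (GRCh38.p14). Python 3.11.15 was used for counts and figures.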

Additional observations from a re-analysis of the deposited data

Results flagged for a closer look

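Among 152 named genes, 5 (3.29%) had 1 of the 4 arrays numbered 2 and 3 far from the other three by Dixon's criterion, which chance meets in about 1 group in 20. These were APOA1, which read 5.56 on POSTN 3 and 2.73 to 3.0 on the rest, all below background, and MMP7, at 11.02 on POSTN 2 and 11.26 to 11.30 on the rest. The others were SOCS3, at 9.67 on control 2 and 9.44 to 9.46 on the rest, IFIH1, at 7.72 on POSTN 2 and 7.54 to 7.55 on the rest, and PPP1R14B-AS1, at 5.83 on control 2 and 6.71 to 6.85 on the rest. None of these arrays bridged the gap to the arrays numbered 1 in MMP7, SOCS3, IFIH1 or PPP1R14B-AS1.

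NQO1 stood out because number 1 was above both other arrays among controls (difference 0.09) and below both among POSTN arrays (difference -0.04). Its interaction estimate was -0.13, which did not pass limma's test (adjusted p 0.992).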

How the results depend on the processing

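The count of 3069 probe sets called between the numbers became 1750 without probe sets that may read several genes, 638 within control arrays, 664 within POSTN arrays and 928 by the methods' t-test once its p-values were adjusted (2027 at the fold and unadjusted p limits of that test). It was 0 in limma without the variance trend (6261 at an unadjusted p under 0.05). Leaving out 1 array at a time gave 657 to 3073, with 718 without control 1, 657 without POSTN 1 and 1869 without POSTN 3. With number as a block it was 3389, and the block changed no call of POSTN against control (0). Quantile normalization, median centring, an added 50, array weights, the filter on background and the fit without dose stayed within 1.5-fold of it. Higher probe sets made up 51.8% of calls, and 48.4% to 58.6% under the other scalings. Number 2 against number 3 ranged from 0 to 189 with 1 array left out (189 without POSTN 2, 33 without control 2, 16 without POSTN 3, 9 without control 3). The interaction and POSTN counts were 0 in every limma fit that could be made. Of 139 named genes that were called, 138 kept their sign under every alternative, the exception being SLC30A1 (-0.0936 as the mean of its probe sets above background). The naming rule favours this, since it took called genes whose arrays numbered 1 lay outside the range of the others. The count is therefore no measure of how stable the differences are. The median of chromosome 15 ran from 0.21 to 0.25, that of the first 60 genes of chromosome 3 from 0.46 to 0.60 and of chromosome 2 from 0.31 to 0.36, in alternatives added after seeing the data. Without the genes of these stretches the called members of the unfolded protein response fell from 5 to 2 and of mitosis from 3 to 1. Dim probe sets limit precision, with a median SE of 0.57 over all and 0.15 above background. The median of metallothioneins and zinc transport was -0.79 and ran from -0.87 to -0.20, the latter without probe sets that may read several genes. Among other lists, the median of apolipoproteins and lipoprotein assembly ran from -0.04 to 0.36, of plasma carriers from 0.0035 to 0.46, of liver-enriched transcription factors from 0.12 to 0.55, of hepatocyte enzymes from 0.06 to 0.22, of fatty acid synthesis from 0.12 to 0.27, of HIF targets from 0.22 to 0.40 and of NF-kappaB targets from -0.43 to -0.24. The small medians of glycolysis (-0.13 to -0.0051), NRF2 targets (0.0097 to 0.17), lysosome genes (-0.10 to -0.02), G1 genes (0.04 to 0.23), ribosomal proteins (-0.18 to -0.0052), mitosis (-0.04 to 0.05) and the respiratory chain (-0.0084 to 0.07) also moved by over 1.5-fold, and those of mitosis and the respiratory chain changed sign.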
